A study of Mus musculus with 15 samples.

Results

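Nutrient receptors and the ATP-sensitive potassium channel of the gut were followed in RNA of the mouse ileum, the part of the small intestine that joins the colon. The set had 10 listed genes out of 37620 gene identifiers in the count tables: the fatty acid receptors Ffar1, Ffar2, Ffar3 and Ffar4, the lipid amide receptor Gpr119, the bile acid receptor Gpbar1, the calcium and amino acid receptor Casr, the lysophosphatidic acid receptor Lpar5, and the channel subunits Abcc8 and Kcnj11. They were chosen by name for their role in sensing nutrients. A symbol matched an identifier for 9 of the 10, and Kcnj11 was not analysed here. The libraries labelled mutant came from Rfx6f/f mice with Vilin-CreERT2, a tamoxifen-activated recombinase driven by the Villin promoter. That promoter works throughout the intestinal epithelium and not in hormone cells alone. Controls carried the floxed allele without the recombinase. They were Rfx6f/f at 8 days and, at 3 months, 2 were Rfx6f/f and 2 were Rfx6f/+. Adult mice had received 10 mg tamoxifen by repeated gavage over 5 days, and ileum was taken 8 days later (3 control and 4 labelled mutant libraries) or 3 months later (4 and 4). The labels give no age beyond adult, no sex and no separate regime for controls.

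Enteroendocrine cells are rare hormone-producing cells of the gut epithelium, and Rfx6 is a transcription factor needed to make the peptide hormone types among them. These cells read the gut contents with G protein-coupled receptors: long-chain fatty acids act on Ffar1 and Ffar4, short-chain fatty acids on Ffar2 and Ffar3, monoacylglycerols and oleoylethanolamide on Gpr119, bile acids on Gpbar1, and aromatic amino acids and calcium on Casr. Glucose entry closes the potassium channel built from Abcc8 and Kcnj11, which depolarises the cell and releases hormone. Several of these receptors are also used by other cells, such as Ffar2 by neutrophils and Ffar3 by neurons.

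The low members rest on few counts, and some of them also varied widely between libraries of a group. Given in units of 1000000 counts, library totals were 30.5 to 54.5 at 8 days and 26.1 to 36.3 at 3 months. The labels do not say that each library was a separate animal, so p-values measure the spread between these libraries. No library was a copy of another: the most alike pair within a group still had a chi-square of 11.2 per degree of freedom. The total counts of Rfx6 itself did not fall. By the edgeR quasi-likelihood test its log2 fold change was 0.20 (SE 0.18, adjusted p 0.867) at 8 days and 0.72 (SE 0.17, adjusted p 0.0347) at 3 months. Groups are therefore called by their labels, and counts over the deleted exons alone were not analysed here. In RNA of whole ileum, fewer cells of a type and less RNA per cell cannot be told apart. Ileum markers (Fabp6, Slc10a2, Fgf15, Cubn and Guca2a) were detected in all 15 libraries, with sums of 3962 to 5119 counts per 1000000 (CPM, scaled by the trimmed mean of M values, TMM) at 8 days. The 3-month sums were 3604 to 4734 CPM in controls and 2063 to 4133 CPM in those labelled mutant.

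Start-site sequences are shown for 4 members, as reference for the results. In CPM, Gpr119, Casr and Ffar1 lay below every control without overlap in at least 1 cohort, and Ffar4 overlapped in both. Gpbar1 also lay below every control at 8 days, and its sequence is not shown. Each is RefSeq sequence of GRCm38.p6 from 250 bases before to 50 bases after the annotated start, 5′ to 3′ on the gene's strand. Gpr119 is at chrX:48674429-48674728 on the minus strand, Casr at chr16:36562085-36562384 on the minus strand, Ffar1 at chr7:30861421-30861720 on the minus strand and Ffar4 at chr19:38096829-38097128 on the plus strand. Capitals mark matches on either strand to GTTGCC, which is part of the X-box bound by RFX factors (GTTNCCATGGNAAC in full), or to CAGATG, an E-box of the kind bound by NEUROD1.
Gpr119: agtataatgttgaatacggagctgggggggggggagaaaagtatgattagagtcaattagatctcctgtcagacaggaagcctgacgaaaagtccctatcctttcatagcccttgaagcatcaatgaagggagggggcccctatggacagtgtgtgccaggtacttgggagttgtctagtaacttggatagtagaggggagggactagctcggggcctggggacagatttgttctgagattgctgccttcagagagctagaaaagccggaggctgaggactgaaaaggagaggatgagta
Casr: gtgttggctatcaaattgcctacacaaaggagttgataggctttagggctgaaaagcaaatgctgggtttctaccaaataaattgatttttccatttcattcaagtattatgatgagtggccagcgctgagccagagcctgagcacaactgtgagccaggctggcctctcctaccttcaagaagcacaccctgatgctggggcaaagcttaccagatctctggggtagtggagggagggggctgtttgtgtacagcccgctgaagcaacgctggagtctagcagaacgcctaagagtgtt
Ffar1: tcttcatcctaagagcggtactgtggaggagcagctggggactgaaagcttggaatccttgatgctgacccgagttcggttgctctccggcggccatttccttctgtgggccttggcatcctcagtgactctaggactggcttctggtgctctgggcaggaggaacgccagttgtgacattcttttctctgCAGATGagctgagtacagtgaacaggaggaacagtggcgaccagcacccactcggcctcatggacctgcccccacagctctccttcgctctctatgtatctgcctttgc
Ffar4: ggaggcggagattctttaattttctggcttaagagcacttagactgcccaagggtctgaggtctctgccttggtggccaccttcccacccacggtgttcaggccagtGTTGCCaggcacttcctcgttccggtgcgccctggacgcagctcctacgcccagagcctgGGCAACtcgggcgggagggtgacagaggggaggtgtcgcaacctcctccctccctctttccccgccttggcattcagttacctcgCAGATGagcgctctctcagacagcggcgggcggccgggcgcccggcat
The table held 12 such windows for 8 of the 10 listed genes, and none for Abcc8 or Kcnj11. The full X-box was in 0 of the 12 windows and in 0.13% of all 32851 promoters of this length. GTTGCC was in 3 of the 12 windows (Ffar4, Gpbar1 and Lpar5) against 12.51% of all promoters, and CAGATG was in 5 of the 12 (from Ffar1, Ffar3, Ffar4 and Lpar5) against 17.15%. The Gpr119 and Casr windows held neither short motif, the Gpbar1 window held GTTGCC alone, and the Ffar4 window held both. Gpr119, Casr, Gpbar1 and Ffar4 were not called in the main edgeR fits. These are matches of letters in short windows and mark no binding site.

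In the control libraries the members spanned a wide range of levels. Per kilobase of annotated exon, Lpar5 was highest in the 8-day controls at 10.4 CPM per kb, followed by Ffar4 at 5.20, Ffar2 at 2.65, Ffar3 at 1.10, Abcc8 at 0.559, Gpbar1 at 0.410, Gpr119 at 0.146, Ffar1 at 0.138 and Casr at 0.0979 (means, n = 3). Neighbours in this order did not overlap in range except Gpr119 with Ffar1 and Ffar1 with Casr. In the 3-month controls Ffar4 led at 9.03 CPM per kb, ahead of Lpar5 at 5.33 and Ffar2 at 2.64 (means, n = 4). Abcc8 stood at 0.393 CPM per kb, and the 5 members below it (Gpbar1, Ffar3, Ffar1, Gpr119 and Casr, from 0.253 down to 0.112) overlapped with their neighbours. In the libraries labelled mutant, Casr and Gpr119 had the lowest levels at both times, at 0.0282 and 0.00849 CPM per kb at 8 days and at 0.00547 and 0 at 3 months. Cohort and time cannot be told apart, so the change of order between cohorts was not tested.

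**Figure D1:**
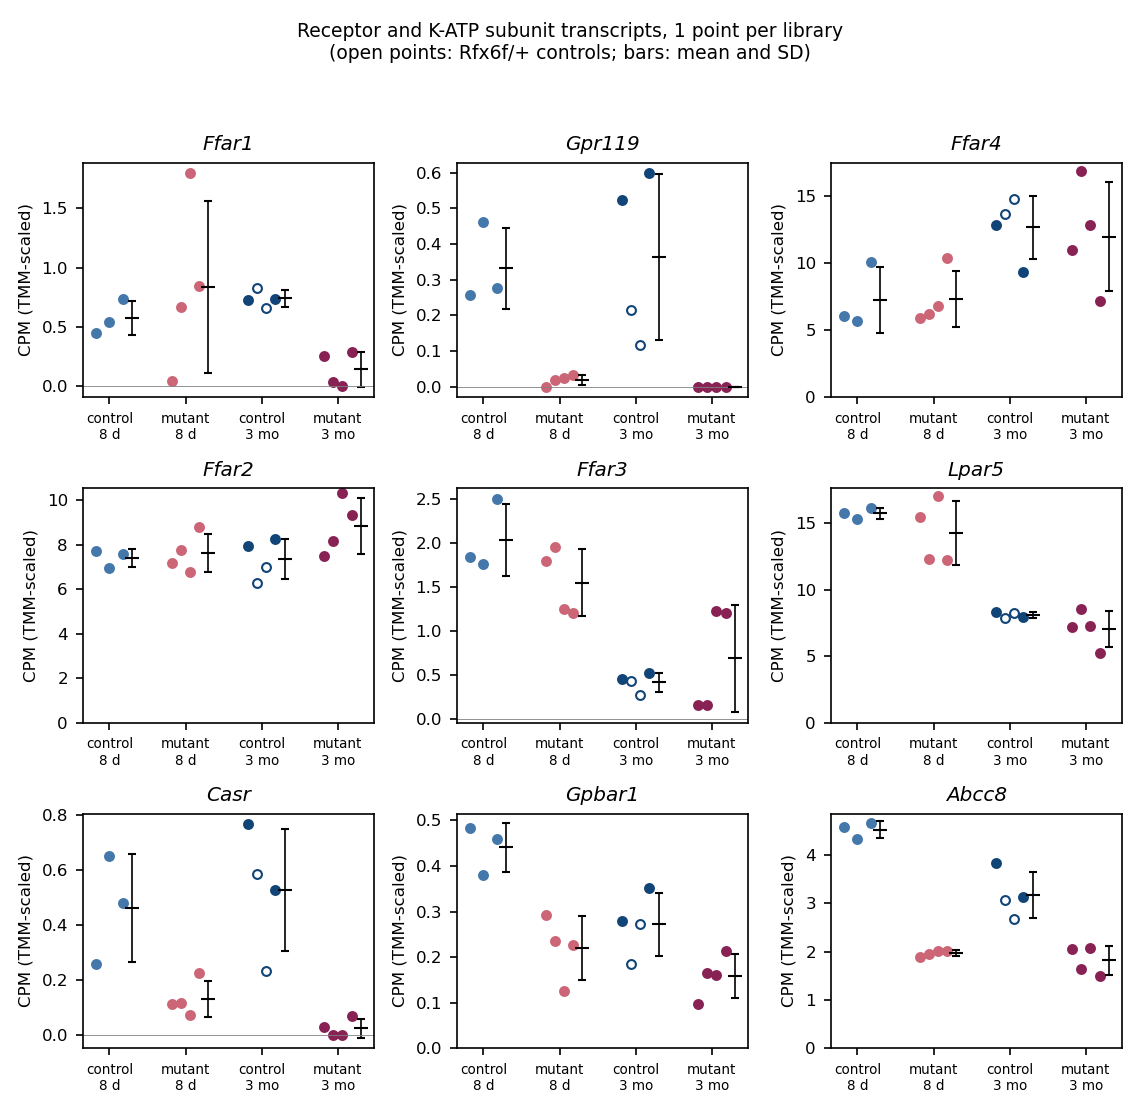
Level of each of the 9 measured members in TMM-scaled CPM (vertical axes start at or just below 0), 1 point per library in 4 groups, with the group mean and SD as bars and open points for Rfx6f/+ controls. Gpr119, Casr and Abcc8 lie below their controls at both times with no overlap, Ffar1 does so at 3 months, and Ffar2, Ffar4 and Lpar5 overlap.

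The first comparison asked which of these genes differed 8 days after tamoxifen. Abcc8, the sulfonylurea receptor subunit of the potassium channel, was the member that passed the test, at less than 0.5 of its control level. Gpr119, Casr and Gpbar1 were also below every control library but missed the threshold after adjustment over all genes. Ffar1, Ffar2, Ffar3, Ffar4 and Lpar5 overlapped between groups. Of the 9 members tested, 1 was called, and it was lower. Over all 17493 genes tested, 0.0915% were called in either direction, 0.0572% lower and 0.0343% higher. Abcc8 and those 3 were the members with no overlap between groups, a pattern that 3.80% of all genes tested showed in that direction and 3.84% in the other. Gpr119, Casr and Gpbar1 passed the count filter (0.248 CPM in at least 3 libraries) only through the controls, where they were higher, with 0, 0 and 1 library labelled mutant at that level. Their lack of overlap was in part set by the filter, so the count is not read against the share of all genes.

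Abcc8 stood at 142, 160 and 254 counts in the 8-day controls, or 4.57, 4.33 and 4.67 CPM. The libraries labelled mutant had 84, 100, 81 and 62 counts, or 1.89, 1.95, 2.02 and 2.02 CPM. Both groups were narrow and lay far apart. The means were 4.53 ± 0.173 CPM (SD, n = 3) and 1.97 ± 0.0621 CPM (SD, n = 4), and the edgeR log2 fold change was -1.20 with an SE of 0.13 (adjusted p 0.0115). The value lay between -1.25 and -1.18 under all 16 alternatives, but 6 of them lost the call, with adjusted p from 2.29e-09 to 0.163 over the 16. The call was lost without control replicate 1, 2 or 3, or replicate 2 or 4 of those labelled mutant, with log2 fold changes of -1.23 to -1.18. It was also lost with the summed level of B cell markers (Cd79a, Cd79b, Ms4a1 and Pax5) as a covariate, a fit added after seeing the data (-1.25, adjusted p 0.163).

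At 3 months Abcc8 was lower again. The controls had 110, 100, 69 and 89 counts, or 3.83, 3.07, 2.68 and 3.13 CPM, and the libraries labelled mutant had 64, 50, 78 and 42 counts, or 2.06, 1.65, 2.08 and 1.495 CPM. The lowest control stood above the highest library labelled mutant. The means were 3.18 ± 0.477 and 1.82 ± 0.293 CPM (SD, n = 4 each), and the log2 fold change was -0.80 (SE 0.17, edgeR adjusted p 0.0256). The call was lost without control replicate 1, 2 or 3 (log2 fold changes -0.70, -0.82 and -0.87) and with Rfx6f/f controls only (-0.93, adjusted p 0.135; range over 18 alternatives 0.00168 to 0.135). It was also lost with the same B cell marker covariate (-0.96, adjusted p 0.121). The effects at the 2 times differed by 0.38 on the log2 scale (SE 0.20, edgeR adjusted p 0.359), which did not pass.

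Abcc8 is also expressed in pancreatic beta cells and neurons. The insulin genes Ins1 and Ins2 had 0 counts in all 8-day libraries, and at 3 months Ins1 had 0 to 3 counts and Ins2 0 to 5 counts. The third islet marker, Iapp, was lower in libraries labelled mutant with no overlap, at 7 to 20 counts in controls against 0 to 1 at 8 days and 9 to 25 against 0 to 6 at 3 months, and it was too low to be tested. Its part in the Abcc8 value was not tested. Of the 6 pancreatic markers, 3 were tested at each time, and 0 passed with edgeR, DESeq2 or limma-voom or had an unadjusted p under 0.05. The summed level of the 6, most of it from the exocrine genes Prss2, Cela1 and Cpa1, was 5.09 to 52.0 CPM in controls and 3.497 to 84.2 CPM in those labelled mutant at 8 days, and 24.1 to 581 and 15.5 to 188 CPM at 3 months. Of 9 enteric neuron and glia markers, 0 passed with any of the 3 tools at 8 days, with 1 at an unadjusted p under 0.05 (sums of 43.8 to 61.4 against 39.95 to 53.0 CPM) and 1 rose at 3 months (33.6 to 38.2 against 38.2 to 54.3 CPM). Of 11 markers shared by enteroendocrine cells, such as Chga, 0 passed with any of the 3 tools at 8 days, with 5 at an unadjusted p under 0.05 by edgeR. Their list median at 8 days was -0.26, and the sums overlapped (147.2 to 199.3 against 156.8 to 207.5 CPM). At 3 months Chga and Chgb rose and Scgn fell. The sums were 195 to 250 CPM in controls and 393 to 512 CPM in the libraries labelled mutant, carried by Chga (807 to 1035 against 2584 to 3864 counts) and Chgb (1558 to 2530 against 6019 to 10106 counts), and the list median was 0.16. Among 14770 genes compared over the 15 libraries, the ones whose log2 CPM followed Abcc8 most closely were Pax6 (Pearson r 0.932) and Gip (r 0.930), both measured in the same libraries and groups.

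Gpr119 had 0 or 1 count in every library labelled mutant. The 8-day controls had 8, 17 and 15 counts, and the libraries labelled mutant had 0, 1, 1 and 1. Every control was above every library labelled mutant. The means were 0.331 ± 0.112 CPM (SD, n = 3) and 0.0193 ± 0.0139 CPM (SD, n = 4), and pooled counts of 40 and 3 gave a control-to-mutant ratio of 18.1 (95% exact counting interval 5.78 to 91.7, which covers counting error only). The fitted log2 fold change was -3.98 (SE 0.60, edgeR unadjusted p 0.000111, adjusted p 0.0884). It was called with DESeq2 (adjusted p 0.0189), with no filter on low counts (0.0420) and without the library labelled mutant replicate 1 (0.0397), and the adjusted p ran from 0.0189 to 0.419 over 15 alternatives.

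At 3 months Gpr119 had 15, 7, 3 and 17 counts in the controls (0.363 ± 0.233 CPM, SD, n = 4) and 0 counts in each of the 4 libraries labelled mutant. No control reached 0. With a floor of 3 counts over the group, the pooled level was 15.4-fold lower. That figure leaves out the counting error of the 42 control counts and the spread between controls. The count filter removed Gpr119 before the test at 3 months. Without that filter the fitted log2 fold change was -6.48 (edgeR adjusted p 0.0231; range 0.00328 to 0.1001 over 3 alternatives), a value that depends on the prior count and is no bound. The alternatives that kept the filter admitted Gpr119 only through controls, where it was higher. Within the controls the Rfx6f/f libraries had 15 and 17 counts and the Rfx6f/+ libraries 7 and 3, a difference between genotypes that was not tested.

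Casr, the extracellular calcium-sensing receptor that also responds to amino acids, was low at both times. The 8-day controls had 8, 24 and 26 counts (0.258, 0.650 and 0.478 CPM), and the libraries labelled mutant had 5, 6, 3 and 7 counts (0.112, 0.117, 0.0749 and 0.228 CPM). The groups did not overlap, although the lowest control was close to the highest library labelled mutant. The log2 fold change was -1.85 (SE 0.45, edgeR unadjusted p 0.00266, adjusted p 0.379), and pooled counts of 58 and 21 gave a ratio of 3.76 (95% exact counting interval 2.25 to 6.52).

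At 3 months Casr had 22, 19, 6 and 15 counts in controls and 1, 0, 0 and 2 counts in the libraries labelled mutant. The means were 0.528 ± 0.221 and 0.0258 ± 0.0338 CPM (SD, n = 4 each), again with no overlap. Pooled counts of 62 and 3 gave a ratio of 22.7 (95% exact counting interval 7.43 to 113). Casr was below the filter in that cohort. Only 3 controls and 0 libraries labelled mutant reached 0.332 CPM, where 4 libraries were needed. Casr was called without the filter (log2 fold change -4.26, edgeR adjusted p 0.00849) and in the fit of all 15 libraries (-4.30, adjusted p 0.00161). Its adjusted p ran from 0.00161 to 0.0746 over 8 alternatives. Those that kept the filter admitted Casr only through controls, where it was higher, so their calls are not read as further support. The difference between the effects at the 2 times was -2.47 on the log2 scale (SE 0.92, edgeR adjusted p 0.184).

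Gpbar1, the cell-surface bile acid receptor, had 15, 14 and 25 counts in the 8-day controls and 13, 12, 5 and 7 in those labelled mutant. Scaled for depth, these were 0.483, 0.379 and 0.460 CPM against 0.292, 0.234, 0.125 and 0.228 CPM, with no overlap. The log2 fold change was -0.98 (SE 0.33, edgeR adjusted p 0.460). The 3-month controls had 8, 6, 7 and 10 counts, and those labelled mutant had 3, 5, 6 and 6, below the filter. The ranges overlapped, and the pooled ratio of 1.71 had a counting interval (0.942 to 3.16) that included no difference. Without the filter the 3-month log2 fold change was -0.76 (SE 0.38, edgeR adjusted p 0.296). In the fit of all 15 libraries it was -0.776 (SE 0.34, adjusted p 0.1765).

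Ffar1, a receptor for long-chain fatty acids that raises incretin and insulin secretion, was called lower at 3 months and not at 8 days. At 8 days it had 14, 20 and 40 counts in controls and 2, 34, 72 and 26 counts in the libraries labelled mutant, so the latter held both the lowest and the highest library. The log2 fold change was 0.50 (SE 0.75, edgeR adjusted p 0.939). It changed sign to -0.22 without the library labelled mutant replicate 3. At 3 months the controls had 21, 27, 17 and 21 counts, and the libraries labelled mutant had 8, 1, 0 and 8 counts. The groups did not overlap, with means of 0.740 ± 0.0693 and 0.144 ± 0.148 CPM (SD, n = 4 each).

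The 3-month log2 fold change of Ffar1 was -2.41 (SE 0.62, edgeR adjusted p 0.0442). It was negative under all 17 alternatives and called in 6 of them. The call was lost on leaving out any single library except replicate 4 of those labelled mutant (log2 fold changes from -2.95 to -1.94 over the 8 omissions), with Rfx6f/f controls only (adjusted p 0.229) and in the fit of all 15 libraries (adjusted p 0.0720; range over the 17 from 0.00752 to 0.370). The effects at the 2 times differed by -2.93 (SE 1.11, edgeR adjusted p 0.192).

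B cell and T cell markers are given beside Ffar1, since both differed between libraries. The summed level of Cd79a, Cd79b, Ms4a1 and Pax5 was 10.3, 16.7 and 29.7 CPM in the 8-day controls and 13.9, 69.1, 139 and 162 CPM in the libraries labelled mutant. At 3 months it was 60.2, 129, 75.7 and 93.9 CPM in controls and 40.05, 12.1, 9.62 and 78.5 CPM in those labelled mutant. The 5 libraries with the least Ffar1 in CPM were all labelled mutant, replicate 1 of 8 days and the 4 of 3 months, and those with 0 to 2 counts had marker sums of 9.62 to 13.9 CPM. The 8-day control replicate 1, with a sum of 10.3 CPM, had 14 counts of Ffar1. At 3 months, replicate 4 of those labelled mutant had a sum of 78.5 CPM and 0.285 CPM of Ffar1. Control replicate 3 had 75.7 CPM and 0.660 CPM. None of the 4 markers was at 0 in any library. At 8 days and 3 months 0 of the 4 passed with edgeR (4 and 2 at an unadjusted p under 0.05), 0 with DESeq2 and 0 with limma-voom, and their median log2 fold changes were 2.43 and -1.34. With the marker sum as a covariate, a fit added after seeing the data, Ffar1 had a log2 fold change of -2.04 at 8 days (SE 0.69, edgeR adjusted p 0.9999; range 0.501 to 0.9999 over 15 alternatives) and -1.11 at 3 months (SE 0.58, adjusted p 0.370). In that fit Ffar1 was negative at both times and called at neither, and only 7 of all genes were called at 8 days. The part of B cells in the Ffar1 value was not tested. T cell markers (Cd3e, Cd3g, Cd3d, Cd4, Cd8a and Trac) summed to 71.7 to 86.6 CPM in the 3-month controls and 28.6 to 59.97 CPM in those labelled mutant, with no overlap. Of these 6, 4 fell with each of edgeR, DESeq2 and limma-voom, with a median log2 fold change of -1.15. At 8 days 0 of the 6 passed with any of the 3 tools (2 at an unadjusted p under 0.05 by each), and the sums overlapped (27.1 to 40.5 against 30.5 to 54.8 CPM). None of the 6 was at 0 in any library, and the part of T cells in the Ffar1 value was not tested.

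Cd22, a B cell surface receptor and the next annotated gene to Ffar1 on the same strand of chromosome 7, was looked at after the values were seen. Its level was 6.53, 7.04 and 13.2 CPM in 8-day controls and 6.23, 26.8, 60.4 and 61.1 CPM in those labelled mutant. At 3 months it was 17.9, 41.6, 22.3 and 29.6 CPM in controls and 16.7, 6.14, 7.36 and 29.5 CPM in those labelled mutant. Its log2 fold changes were 2.09 at 8 days (edgeR adjusted p 0.460) and -0.91 at 3 months (adjusted p 0.244). Whether reads past the end of Cd22 were counted for Ffar1 was not tested. Over the 15 libraries the genes most like Ffar1 in log2 CPM were Gpank1 (Pearson r 0.868) and Nfkb1 (r 0.866).

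**Figure D2:**
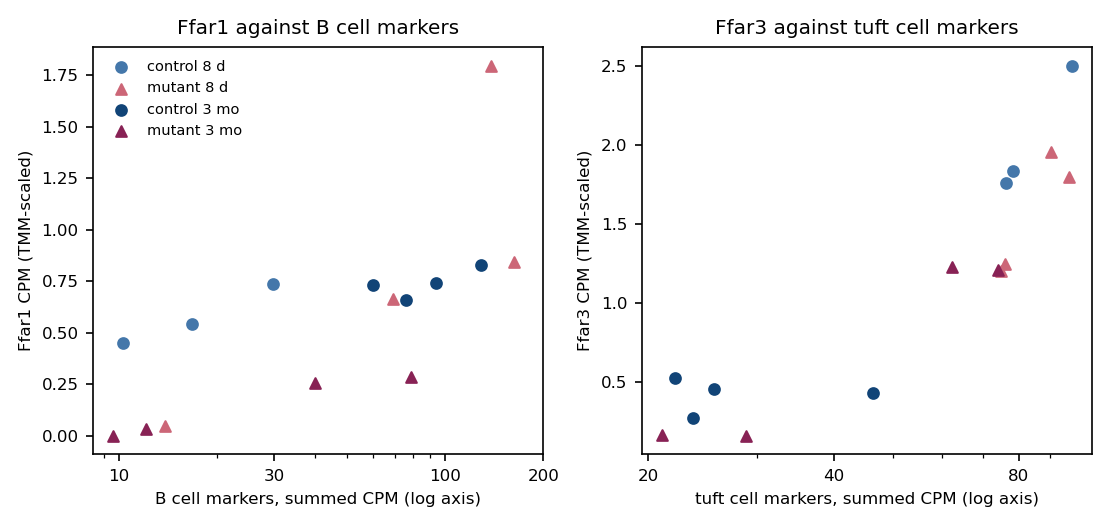
Left, Ffar1 CPM (linear vertical axis) against the summed CPM of 4 B cell markers (log axis). Right, Ffar3 CPM against the summed CPM of 7 tuft cell markers (log axis). Each point is a library, circles for controls and triangles for those labelled mutant. The 3 libraries with the least Ffar1 (0 to 2 counts) have B cell sums of 9.62 to 13.9 CPM, and the 2 libraries labelled mutant with the most Ffar3 at 3 months have the highest tuft sums of their cohort.

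Ffar3, a receptor for short-chain fatty acids, split the 3-month libraries labelled mutant. At 8 days it had 57, 65 and 136 counts in controls and 80, 100, 50 and 37 in those labelled mutant, with overlapping CPM and a log2 fold change of -0.39 (SE 0.23, edgeR adjusted p 0.725). At 3 months the controls had 13, 14, 7 and 15 counts. Those labelled mutant had 5, 5, 46 and 34 counts, with 2 libraries below and 2 above every control. The log2 fold change was 0.71 (SE 0.66, edgeR adjusted p 0.497).

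Tuft cell markers are given beside Ffar3, and the part of tuft cells in its value was not tested. These markers were high in the 2 libraries labelled mutant with high Ffar3 at 3 months. The sum of Dclk1, Pou2f3, Trpm5, Gnat3, Il17rb, Avil and Alox5ap was 76.1 to 97.4 CPM in 8-day controls and 74.8 to 96.4 CPM in those labelled mutant. Ffar3 stood at 1.76 to 2.50 CPM and 1.20 to 1.95 CPM in those 2 groups. At 3 months both the tuft sums and Ffar3 were lower in controls than at 8 days. The 3-month tuft sums were 25.5, 46.3, 23.7 and 22.1 CPM in controls and 28.8, 21.1, 62.2 and 73.9 CPM in those labelled mutant. Control replicate 2, with the highest tuft sum of the controls, had 0.430 CPM of Ffar3, within their range of 0.272 to 0.528 CPM. The highest of these was in control replicate 4, which had the lowest tuft sum. Gnat3 was at 0 in 1 library and the other 6 markers were detected in all. At 3 months 0 of the 7 passed with edgeR (1 at an unadjusted p under 0.05) or limma-voom and 1 with DESeq2. With the tuft sum as a covariate, also added after seeing the data, the 3-month value for Ffar3 was -0.44 (SE 0.55, edgeR adjusted p 0.628; range 0.280 to 0.907 over 17 alternatives).

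Ffar2, the other short-chain fatty acid receptor, varied little. Its counts were 239, 256 and 412 in 8-day controls and 320, 398, 272 and 270 in those labelled mutant, with means of 7.403 ± 0.408 (SD, n = 3) and 7.64 ± 0.862 CPM (SD, n = 4). At 3 months the means were 7.37 ± 0.899 and 8.83 ± 1.26 CPM (SD, n = 4 each), and the ranges overlapped. The log2 fold changes were 0.04 (SE 0.13, edgeR adjusted p 0.973) and 0.26 (SE 0.13, adjusted p 0.229). Neutrophil and monocyte markers, beside the 3-month value, summed to 31.2 to 37.3 CPM in controls and 47.7 to 72.8 CPM in those labelled mutant. Mmp9 carried that sum, with 135 to 292 counts in controls and 877 to 1895 in those labelled mutant. Of 5 tested, Mmp9 rose and Ccr2 fell with edgeR, DESeq2 also called 1 more lower, and the list median was 0.02. The part of these cells in the Ffar2 value was not tested.

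Ffar4, a receptor for long-chain fatty acids like Ffar1, overlapped between groups at both times. It had 188, 210 and 550 counts in 8-day controls and 262, 319, 273 and 320 in those labelled mutant (7.29 ± 2.46, n = 3, and 7.34 ± 2.08 CPM, n = 4, SD). At 3 months the counts were 369, 444, 381 and 266 against 342, 512, 482 and 202 (12.7 ± 2.34 and 11.98 ± 4.04 CPM, SD, n = 4 each). The log2 fold changes were 0.001 (SE 0.26) and -0.08 (SE 0.24), with edgeR adjusted p of 0.9999 and 0.857.

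Lpar5, which binds lysophosphatidic acid, had the most counts of the members at 8 days, with 490, 564 and 878 in controls and 686, 629, 683 and 377 in those labelled mutant. At 3 months it had 239, 256, 212 and 225 against 224, 258, 273 and 147. The groups overlapped in CPM at both times. Its means were 15.7 ± 0.436 (SD, n = 3) and 14.3 ± 2.38 CPM (SD, n = 4) at 8 days, and 8.08 ± 0.225 and 7.05 ± 1.36 CPM (SD, n = 4 each) at 3 months. The log2 fold changes were -0.14 (SE 0.13, edgeR adjusted p 0.865) and -0.20 (SE 0.14, adjusted p 0.383).

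The second comparison, at 3 months, called 2 of the 6 members that passed the count filter, Ffar1 and Abcc8, both lower. Over the 17085 genes tested, 9.28% were called, 4.32% lower and 4.96% higher. Both also lay below every control without overlap, beside 9.53% of the tested genes in that direction and 9.70% in the other. Ffar1 passed the filter (0.332 CPM in at least 4 libraries) only through its 4 controls, with 0 libraries labelled mutant at that level, so neither count is read against the shares of all genes. The filter had removed Gpr119, Casr and Gpbar1, so the 6 tested members are not the whole set, and of these Gpr119 and Casr also lay below every control.

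**Figure D3:**
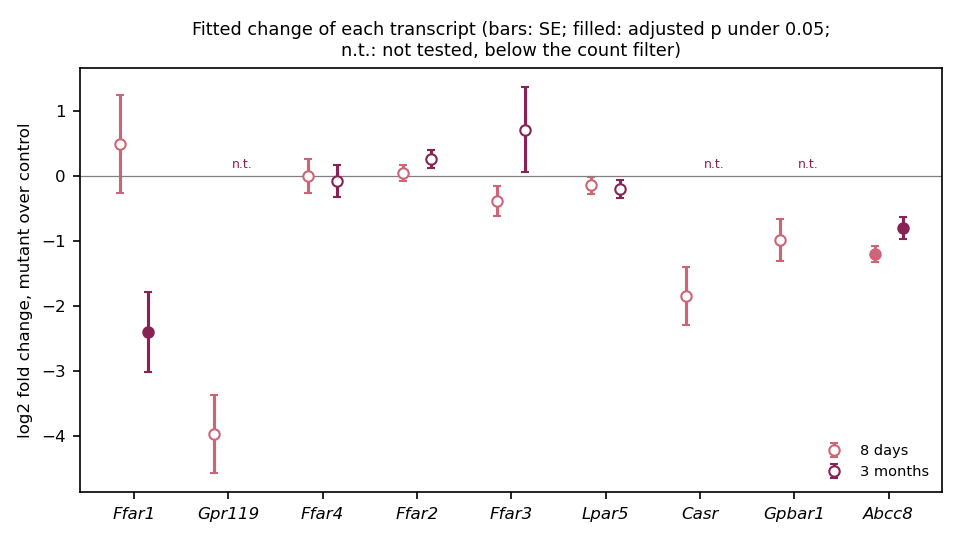
Fitted log2 fold change of each member, libraries labelled mutant over control (vertical axis), at 8 days and 3 months, with SE bars and filled points for an adjusted p under 0.05. Abcc8 is filled at both times (-1.20 and -0.80) and Ffar1 at 3 months (-2.41), and 3 members were not tested at 3 months.

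The third comparison asked whether the effect differed between the times. All 9 measured members were tested, and 0 were called with edgeR, DESeq2 or limma-voom, with 2 at an unadjusted p under 0.05 by edgeR (Ffar1 and Casr), 2 by DESeq2 and 1 by limma-voom. Over 17959 genes tested, 0.785% were called. Without the library labelled mutant replicate 1 of 8 days, Ffar1 was called (-3.34, edgeR adjusted p 0.0353; range 0.0353 to 0.880 over 23 alternatives).

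Of 9 peptide hormone genes tested at 8 days, 5 were lower and 0 higher with edgeR: Gcg, which encodes GLP-1, Gip, Cck, Sst and Ghrl. DESeq2 called all 9 lower. Over all genes 0.0572% were called lower by edgeR at that time. Gcg stood at 40.8 ± 3.96 CPM (SD, n = 3) in controls and 2.29 ± 1.08 CPM (SD, n = 4) in those labelled mutant, and its log2 fold change was -4.15 (SE 0.32, edgeR adjusted p 0.00342). At 3 months 8 of 8 tested were called lower, beside 4.32% of all genes, and Insl5 was not tested. Several of these genes passed the count filter only through the controls, with 0 libraries labelled mutant at its level: Gip, Ghrl and Insl5 at 8 days, and Gcg, Pyy, Gip, Nts and Ghrl at 3 months. The counts of called hormone genes are therefore not read against the shares of all genes.

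Among other receptors for nutrients and metabolites, edgeR called 2 higher, both at 3 months. Of 22 listed, 16 were tested. At 8 days 0 were called with edgeR or limma-voom (2 at an unadjusted p under 0.05 by each), and 2 rose with DESeq2. At 3 months the 2 of 16 that rose, beside 9.28% of all genes called, were Olfr78 and Olfr558, receptors that respond to short-chain and branched fatty acids. DESeq2 called 3 higher and 2 lower. Olfr558 had 26, 31, 31 and 28 counts in controls and 119, 111, 157 and 91 in those labelled mutant, so the lowest of the latter exceeded every control. Its mean went from 1.01 ± 0.133 to 3.73 ± 0.392 CPM (SD, n = 4 each), and the edgeR log2 fold change was 1.88 with an SE of 0.15 (adjusted p 0.000567). The effect differed from that at 8 days by 1.73 (SE 0.20, edgeR adjusted p 0.00383).

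Olfr78 had 10, 13, 7 and 19 counts in 3-month controls and 74, 39, 94 and 24 in those labelled mutant, with no overlap in CPM and a log2 fold change of 2.05 (SE 0.41, edgeR adjusted p 0.0226). Beside these, markers of the serotonin-producing enterochromaffin cells (Tph1, Slc18a1, Ddc, Lmx1a, Tac1 and Trpa1) summed to 101 to 114 CPM in controls and 162 to 173 CPM in the libraries labelled mutant at 3 months, where 4 of 6 rose. At 8 days the sums were 80.9 to 111 and 97.3 to 121 CPM, and 0 of 6 passed (2 at an unadjusted p under 0.05), against 2 with DESeq2 and 0 with limma-voom. The part of these cells in the Olfr78 and Olfr558 values was not tested.

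**Figure D4:**
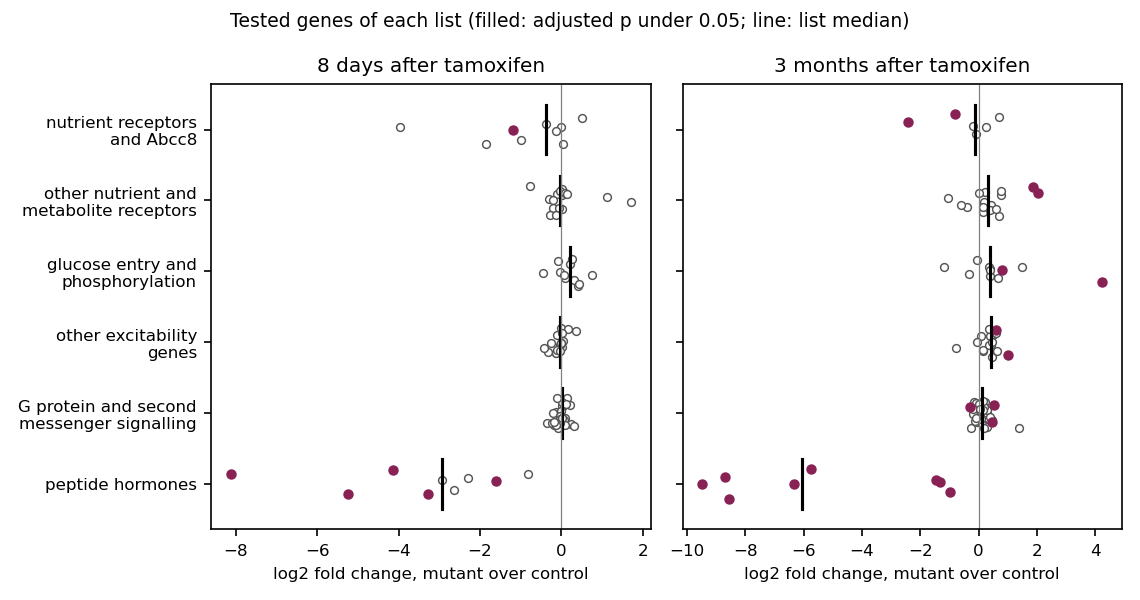
Fitted log2 fold change (horizontal axes) of the tested genes in each list at 8 days (left) and 3 months (right), filled for an adjusted p under 0.05, with a line at each list's median. The hormone genes lie to the left of 0 at both times. Fitted values of genes near 0 counts in those labelled mutant, such as Gip, depend on the prior count, and the lines include them.

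In the list of sugar transporters and hexokinases, 11 were tested at each time. At 8 days 0 were called with edgeR or limma-voom (2 at an unadjusted p under 0.05 by each), against 1 with DESeq2. At 3 months 2 of 11 rose and 0 fell, beside 9.28% of all genes called and 4.96% called higher, and 4 rose with DESeq2. Slc2a2, the transporter GLUT2, had 164, 110, 85 and 92 counts in controls and 3513, 1333, 2634 and 1882 in those labelled mutant. The groups were far apart, at 3.91 ± 1.20 and 73.5 ± 28.7 CPM (SD, n = 4 each), and the log2 fold change was 4.23 (SE 0.32, edgeR adjusted p 0.000555). Slc2a2 stood at 84.4 ± 28.4 CPM (SD, n = 3) in the 8-day controls, so the low values were those of the 3-month controls. The difference between times was 3.96 (SE 0.61, edgeR adjusted p 0.0179).

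Beside Slc2a2, markers of the proximal small intestine (Gata4, Slc40a1, Cybrd1, Fabp1 and Onecut2) summed to 256 to 459 CPM in the 8-day controls and 136 to 384 CPM in those labelled mutant. At 3 months the sums were 81.1 to 118 CPM and 150 to 223 CPM, and 1 of 5 rose with edgeR or limma-voom and 3 with DESeq2. Of the 5 ileum markers, at 3 months 1 fell with edgeR (Fabp6, log2 fold change -1.44, SE 0.20, adjusted p 0.00873) and 2 with DESeq2 or limma-voom, with a list median of -0.55. Enterocyte markers (Alpi, Fabp2, Apoa1, Apob, Vil1, Sis, Lct and Anpep) summed to 14910 to 19390 CPM in the 3-month controls and 23280 to 36760 CPM in those labelled mutant, with no overlap and a list median of 0.56. Of these 8, edgeR and limma-voom each called 1 higher (by edgeR Sis, log2 fold change 2.47, SE 0.20, adjusted p 0.000567) and DESeq2 called 4 higher. None of the 8 was at 0 in any library. At 8 days the sums did not overlap either (21910 to 23990 against 24670 to 32480 CPM), and each tool called 1 higher. The list median at that time was 0.001. Sis had 64074 to 129805 counts in the 8-day controls and 187770 to 514777 in those labelled mutant. Alpi had 19485 to 33828 against 17239 to 25322 counts, and Anpep 165750 to 289500 against 122530 to 216903. The part of these 3 marker lists, or of sampling position, in the Slc2a2 and Khk values was not tested. Khk, which phosphorylates fructose, also rose at 3 months, from 69.5 ± 16.2 to 121 ± 13.3 CPM (SD, n = 4 each), with a log2 fold change by edgeR of 0.80 (SE 0.16, adjusted p 0.0226).

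Of 18 other excitability genes 17 were tested. At 8 days 0 were called with edgeR, DESeq2 or limma-voom, and 0 had an unadjusted p under 0.05 by edgeR. At 3 months 2 of 17 rose and 0 fell, beside 9.28% of all genes called, while 8 rose with DESeq2 and 3 with limma-voom. Scn3a, a voltage-gated sodium channel, went from 5.55 ± 0.317 to 11.2 ± 0.984 CPM (SD, n = 4 each), with a log2 fold change by edgeR of 1.01 (SE 0.10, adjusted p 0.00185), and its effect differed from that at 8 days by 1.10 (SE 0.14, adjusted p 0.00479). Abcc9, the paralog of Abcc8 used in vascular and muscle channels, went from 30.3 ± 3.29 to 45.8 ± 10.6 CPM (log2 fold change 0.60, SE 0.15, edgeR adjusted p 0.0442). Smooth muscle markers beside Abcc9 summed to 1389 to 1683 CPM in controls and 1527 to 2721 CPM in those labelled mutant, 0 of 5 passed with any of the 3 tools (2 at an unadjusted p under 0.05), and their part in the value was not tested. The list's median at 3 months was 0.42.

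In the list of 31 G protein and second messenger genes, 0 were called at 8 days with edgeR, DESeq2 or limma-voom (2 at an unadjusted p under 0.05 by edgeR, 3 each by the other tools). At 3 months 2 rose and 1 fell, a share of 31 genes near the 9.28% called over all genes, and DESeq2 called 5. Gnao1, a G protein alpha subunit, rose by 0.52 on the log2 scale (SE 0.14, edgeR adjusted p 0.0483), and the adenylate cyclase gene Adcy5 by 0.46 (SE 0.11, adjusted p 0.0369). Itpr3, a calcium release channel, went from 319 ± 21.6 to 258 ± 14.8 CPM (SD, n = 4 each), with a log2 fold change by edgeR of -0.30 (SE 0.07, adjusted p 0.0337). The list's medians were 0.02 at 8 days and 0.11 at 3 months.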

How the data were processed

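The authors deposited raw read counts per Ensembl gene, in 1 table per cohort, and the submitters' processing notes name bcl2fastq 2.17.1.14, Bowtie 1.0.0, TopHat2 2.0.10, Bowtie2 2.1.0, HTSeq 0.6.1 and the build mm9. The annotation release and strand handling are not given in the sources used here. The labels name polyA RNA, while the labels' protocols describe ribosomal RNA depletion of total RNA extracted by either of 2 methods, without saying which library had which. Symbols and exon lengths came from GENCODE M21 (32897 of 37620 identifiers, 87.45%; the rest held 0.675% of counts). Exons of the members overlapped no other gene in that annotation.

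The quasi-likelihood F test of edgeR 4.0.16 (R 4.3.3) was run per cohort, after filterByExpr (minimum count 10) and TMM scaling, with Benjamini-Hochberg adjustment over all genes and calls at an adjusted p under 0.05. The difference between times was the interaction in a fit of all 15 libraries. Tests are two-sided and were tested on simulated data. A fold change above 0 on the log2 scale means a higher level in libraries labelled mutant. Alternatives were DESeq2 1.42.0, limma-voom 3.58.1, RLE and upper-quartile scaling, no filter, at least 10 counts in every library, a joint fit, Rfx6f/f controls only, each library left out, and 2 marker covariates added after seeing the data. Named genes were the members, Rfx6, called genes of the pathway lists, hormones, markers and the 2 genes most correlated with each called member; Cd22 was added after its values were seen. Some listed genes are not reported here and were left out of the lists' counts and sums. The members and lists were chosen with earlier results of these data known.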

Additional observations from a re-analysis of the deposited data

Results flagged for a closer look

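At 3 months, Rfx6 in the library labelled mutant replicate 1 was at 3.40 CPM, far above the other libraries of its group (2.31 to 2.38 CPM). The tuft cell marker sum of 3-month control replicate 2 was 46.3 CPM, while the other controls of that cohort had 22.1 to 25.5 CPM. Both stood out by their gap to the nearest library of the same group. Such gaps were looked for in 39 sets of 4 libraries, and chance gives about 1 in 20, or 1.95 here.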

How the results depend on the processing

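Of 455 refits of members with a fitted value, 396 kept their direction and side of the threshold, 22 lost a call, 4 gained one and 33 changed sign. The members below the 3-month filter are given with their refits in the account of each. Ffar1 at 8 days changed sign with limma-voom (-0.33), with the B cell covariate (-2.04) and within the omissions of single libraries (-0.22 to 0.90). The B cell covariate turned the difference between times for Ffar1 (0.95) and Gpbar1 (-0.21). The tuft cell covariate turned Ffar3 at 3 months (-0.44) and its difference between times (-0.091). Ffar4 and Ffar2, near 0 at 8 days, have no stable sign there. Ffar4 at 8 days changed sign with DESeq2 or no filter (-0.003), limma-voom (-0.072), RLE (-0.002) and upper-quartile scaling (-0.006), at least 10 counts in every library (0 after rounding) and the B cell covariate (-0.406), and ran from -0.212 to 0.318 without single libraries. Ffar2 at 8 days had -0.02 with the B cell covariate and -0.029 to 0.094 without single libraries. Ffar4 at 3 months turned with Rfx6f/f controls only (0.11), the tuft covariate (0.024) and within the omissions (-0.289 to 0.103). Its difference between times did so too (0.117, 0.007 and -0.419 to 0.109), and that of Lpar5 with the tuft covariate (0.016) and within the omissions (-0.171 to 0.039). The cause was not tested.

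At 8 days, the 16 called genes became 178 with DESeq2, 27 with no filter, 25 in the joint fit and 7 with the B cell covariate, and 8 to 200 without single libraries. Called members (1) became 2 with DESeq2 or no filter, 0 with the B cell covariate, and 0 to 2 without single libraries. At 3 months, 1586 became 2983 with DESeq2, 36 with Rfx6f/f controls only and 153 with the B cell covariate, and 391 to 1521 without single libraries. Called members (2) became 4 with no filter, 1 with at least 10 counts in every library or the tuft cell covariate, 0 with Rfx6f/f controls only or the B cell covariate, and 0 to 3 without single libraries. For the difference, 141 became 1017 with DESeq2, 41 with limma-voom, 223 with no filter, 248 with at least 10 counts in every library, 5 with Rfx6f/f controls only, 2 with the B cell covariate and 16 with the tuft cell covariate, and 10 to 749 without single libraries, while called members (0) became 0 to 1.

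No paired analysis was possible because the labels give no shared replicate numbers. Low counts limit Gpr119, Casr, Gpbar1 and Ffar1, which had at most 72 in a library. Ffar1 also varied widely between libraries, with 2 to 72 counts in those labelled mutant at 8 days.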

Other observations

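Kcnk16, a potassium channel gene chosen after its values were seen, was below the count filter at both times. It had 2, 2 and 3 counts in 8-day controls. The libraries labelled mutant of that time had 5, 9, 6 and 3. Scaled for depth, the 8-day groups had 0.0542 to 0.0644 and 0.0975 to 0.176 CPM, also with no overlap. At 3 months it had 0, 1, 0 and 1 counts in controls and 11, 6, 12 and 7 in those labelled mutant, with no overlap, a direction opposite to that of Abcc8. The pooled ratio of control to mutant at 3 months was 0.0611 (95% exact counting interval 0.00713 to 0.237, covering counting error only).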
